A study of Mus musculus with 64 samples.

Results

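The 10 apolipoprotein genes Apoa1, Apoa2, Apoa4, Apoa5, Apob, Apoc1, Apoc2, Apoc3, Apoe and Apoh were followed across 4 stages of C57BL/6 mouse development. They were chosen by name, and all 10 were found among the 23338 genes counted. RNA-seq counts came from 64 libraries, with male and female samples at each stage, so that the level of each gene could be set by stage and by gender label. There were 12 single 8-cell embryos (6 male, 6 female), 4 embryonic stem (ES) cell lines (2 male, 2 female), 24 fetal livers (12 male, 12 female) and 24 adult livers (12 male, 12 female). The labels name no transgene, deletion or treatment of the animals, which ate standard chow. The embryos came from natural matings, and each library held the amplified RNA of all cells of one embryo, whose gender the study assigned from the expression of an X-linked and a Y-linked gene. The ES lines were each grown from one 8-cell embryo in 2i medium, which holds 2 kinase inhibitors (of MEK and of GSK3) plus LIF, so that each line stands for one embryo. Fetal livers were taken past 17 days post-coital, and adult livers at 15 to 20 weeks of age, late in the morning. ES and liver libraries shared one stranded total RNA kit, whereas the embryo libraries used a single-cell protocol, so embryos are described beside the other stages without a test.

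Apolipoproteins are the protein part of lipoproteins, the particles that carry triglyceride and cholesterol in blood. Hepatocytes make most of them, enterocytes of the small intestine make several, and the yolk sac and fetal liver make them before birth. Apob is the structural protein of very low density lipoprotein and chylomicrons, and Apoe is the ligand through which receptors clear remnants. Apoa1 and Apoa2 are the main proteins of high density lipoprotein. Apoc2 activates lipoprotein lipase, Apoc3 slows triglyceride clearance, and Apoa5 speeds it. Apoa4 is made with chylomicrons in the gut and in mice also by the liver, Apoc1 inhibits the transfer and uptake of lipoprotein lipids, and Apoh (beta-2-glycoprotein I) binds phospholipids and is best known from coagulation.

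Of the 10 genes, 7 lie in 2 clusters of the genome (GRCm38, the assembly also called mm10, with GENCODE gene models). The chromosome 9 cluster spans 43.3 kb and holds Apoa1 (chr9:46228580-46230466, plus strand), Apoc3 (chr9:46232933-46235636, minus strand), Apoa4 (chr9:46240696-46243459, plus strand) and Apoa5 (chr9:46268633-46271919, plus strand). The chromosome 7 cluster spans 27.6 kb and holds Apoc2 (chr7:19671579-19677941), Apoc1 (chr7:19689481-19692660) and Apoe (chr7:19696109-19699188), all on the minus strand. Apoa2 (chr1:171225054-171226379), Apob (chr12:7977648-8016835) and Apoh (chr11:108343354-108414396) stand alone on the plus strand. All 10 are protein-coding, and their exon models run from 537 bases for Apoa2 to 13934 bases for Apob. Overlaps of 4 genes may bear on the counts. For those on the other strand, this depends on the strand setting of the counting, which is not given in the sources used here. Apoa4 and Apoa5 overlap transcripts of the other strand, Apoc2 shares 6358 bases with another protein-coding model on its own strand, and Apoh shares 575 bases with Prkca on the other strand. Of the overlapping genes, Prkca is counted in the files.

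Promoter sequences, from 250 bases before to 50 bases after the RefSeq start (GRCm38.p6), were at hand for 8 of the 10 genes, all but Apoc1 and Apoc3. Those of 4 genes are shown 5′ to 3′ because they carry the contrasts between stages described below. They are Apoa1 (high from fetal liver on), its neighbours Apoa4 and Apoa5 on chromosome 9 (a few reads in most fetal livers, many in adult liver), and Apoc2 (lower in adult than in fetal liver). Capitals mark TATAAA (the TATA box) and AGGTCA (the nuclear receptor half-site).
Apoa1, chr9:46228380-46228679, plus strand: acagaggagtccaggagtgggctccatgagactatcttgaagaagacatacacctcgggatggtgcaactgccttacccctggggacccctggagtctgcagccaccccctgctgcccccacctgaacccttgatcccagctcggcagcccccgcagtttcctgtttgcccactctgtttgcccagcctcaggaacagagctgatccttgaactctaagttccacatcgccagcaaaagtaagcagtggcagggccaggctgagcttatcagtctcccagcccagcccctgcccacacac
Apoa4, chr9:46240594-46240893, plus strand: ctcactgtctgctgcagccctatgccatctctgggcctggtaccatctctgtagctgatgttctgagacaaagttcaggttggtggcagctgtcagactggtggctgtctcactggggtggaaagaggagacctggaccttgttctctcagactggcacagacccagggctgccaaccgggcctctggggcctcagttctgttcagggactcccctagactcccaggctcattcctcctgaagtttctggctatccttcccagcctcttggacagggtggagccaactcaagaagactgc
Apoa5, chr9:46268358-46268657, plus strand: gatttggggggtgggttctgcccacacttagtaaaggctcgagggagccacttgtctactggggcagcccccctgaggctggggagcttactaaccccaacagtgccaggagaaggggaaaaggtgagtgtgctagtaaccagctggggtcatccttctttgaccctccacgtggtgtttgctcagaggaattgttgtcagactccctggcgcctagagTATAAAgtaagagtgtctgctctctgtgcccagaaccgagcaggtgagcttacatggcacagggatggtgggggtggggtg
Apoc2, chr7:19677892-19678191, minus strand: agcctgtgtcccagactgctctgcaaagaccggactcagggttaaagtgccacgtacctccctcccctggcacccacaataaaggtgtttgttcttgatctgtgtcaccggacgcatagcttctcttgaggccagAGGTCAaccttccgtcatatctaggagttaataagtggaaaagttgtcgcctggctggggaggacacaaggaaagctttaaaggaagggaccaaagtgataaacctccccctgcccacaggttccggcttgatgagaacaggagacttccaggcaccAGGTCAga

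The TATAAA of Apoa5 starts at -31 from the start site of the window shown, and at -56 from another RefSeq start of the gene. The 2 AGGTCA of Apoc2 start at -115 and 43. The Apoa1 and Apoa4 windows hold neither. Most of the Apoa4 window (chr9:46240594-46240893) lies past the GENCODE start of the gene (46240696), so it covers little sequence before that start. The 5 motifs of the search were sought on both strands, and AGGTCA is also the end of CAAAGGTCA. TATAAA was present in a window of 4 of the 8 genes (Apoa2, Apoa5, Apob, Apoe), against 13.6% of all 32851 windows in the same RefSeq table. AGGTCA was present in 3 of the 8 (Apoa2, Apoc2, Apoh), against 16.3% of all windows. The HNF4 cores CAAAGGTCA (0.478% of all windows) and CAAAGTCCA (0.475%) and the STAT5 motif TTCNNNGAA (8.30%) were in none of the 8. A gene with several starts has several windows, so the gene and window shares are not on one scale, and a match is only a match of letters.

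Reads on genes ran from 1567583 to 10386931 per library, and adult livers were the shallowest (1567583 to 4757610). Levels are given as CPM, a gene's reads scaled to a common library size with TMM factors over all 64 libraries, and 3 reads in a library corresponded to 0.217 to 2.28 CPM. The labelled tissues carried their markers. All 9 hepatocyte markers had reads in the livers, where they summed to 42600 CPM or more, against at most 20.1 CPM in embryos and ES lines. The 5 pluripotency markers summed to 1723 to 1949 CPM in ES lines and 228 to 945 CPM in embryos, against at most 3.46 CPM in any liver. The share of reads outside genes was 39.9 to 49.0% in fetal males against 34.1 to 38.1% in fetal females, with no overlap, and 28.0 to 35.2% in adult males against 25.7 to 36.6% in adult females. One fetal liver, female 14, stood apart in intestine markers, and values that rest on it are given with and without it. The labels number the samples of a group but give no litters. By the paper's methods the 12 embryos came from 4 litters, so some are siblings. Which embryo belongs to which litter is not given, so litter was not modelled. The p-values therefore measure the spread between these samples.

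Together the 10 genes took 1.64% ± 0.102 of reads on genes in fetal liver (SD, n = 24) and 3.69% ± 0.220 in adult liver (SD, n = 24). In ES lines they took 0.0815% ± 0.00937 (SD, n = 4), and in 8-cell embryos 0.00494% ± 0.00259 (SD, n = 12). The lowest adult liver (3.29%) lay above the highest fetal liver (1.87%). Apob alone supplied 50.8% ± 3.77 of the 10 genes' reads in fetal liver and 43.4% ± 3.94 in adult liver (SD, n = 24 each). It ranked at a median of 4 among all genes by reads in fetal liver and 2 in adult liver, which its long transcript favours. Apoe rose from 12.4% ± 1.12 to 23.6% ± 1.89 of the 10 genes' reads, while Apoa1 went from 16.2% ± 1.06 to 9.39% ± 1.87 (SD, n = 24 each).

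**Figure D1:**
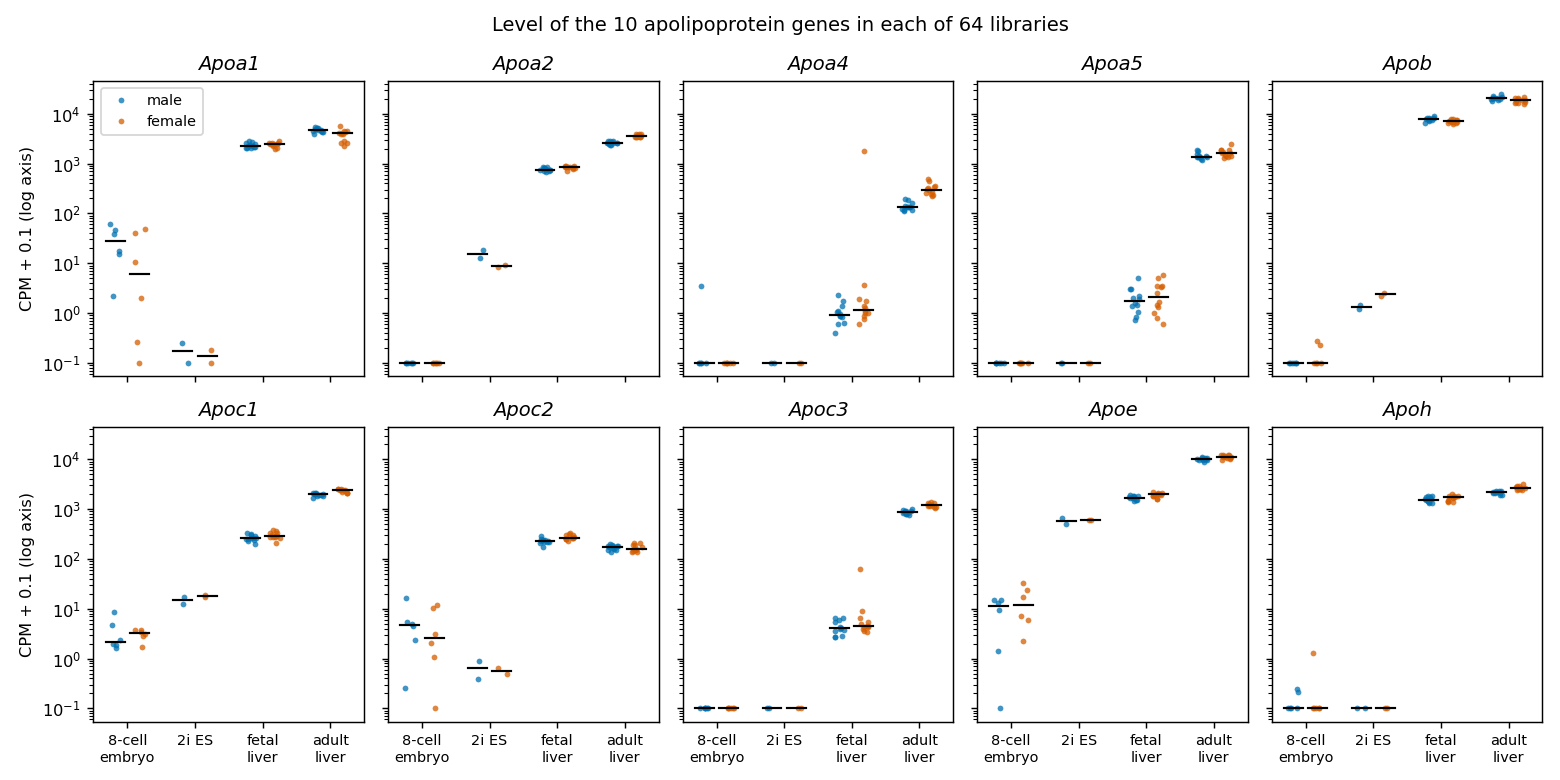
Each panel shows 1 gene, with CPM plus 0.1 on a log axis against stage, 1 point per library (blue male, orange female) and a bar at each group's median. All 10 genes reach their high levels in liver. Apoa4, Apoa5 and Apoc3 stay low in fetal liver, apart from 1 fetal female library (1762 CPM of Apoa4), and rise to medians of 208, 1432 and 1024 CPM in adult liver, whereas Apoe is already at 492 to 663 CPM in the 4 ES lines.

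**Figure D2:**
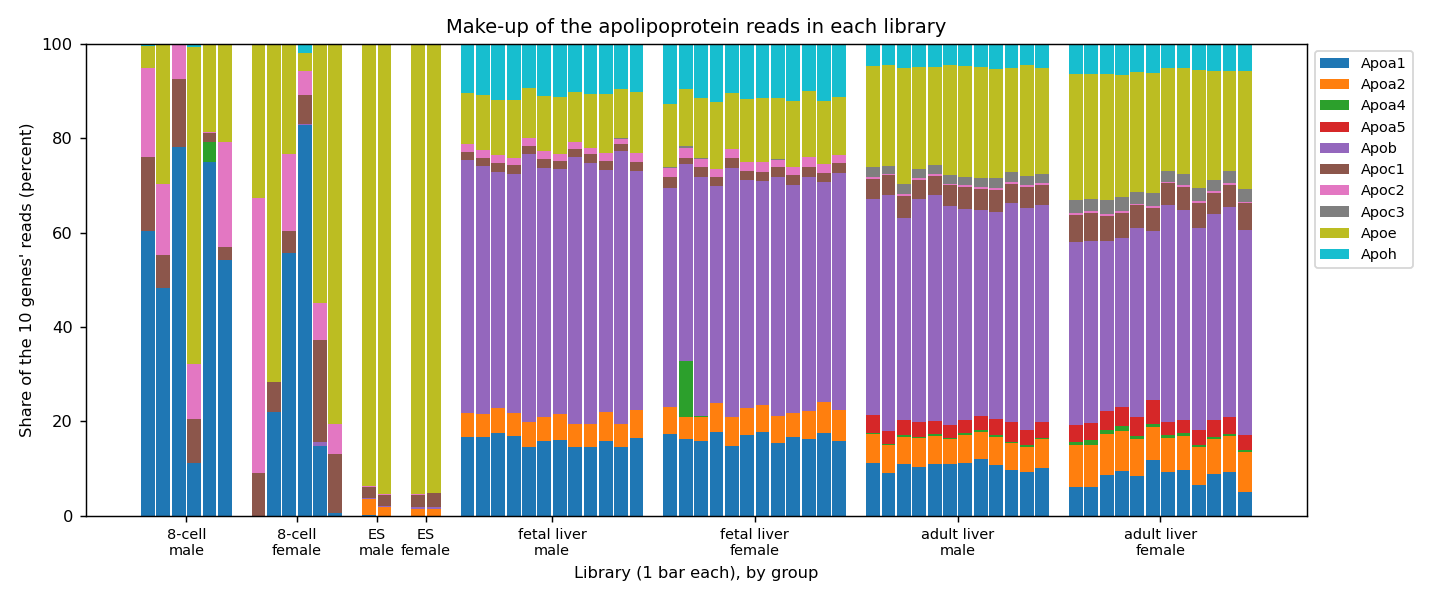
Each bar is 1 library and shows what percentage of the 10 genes' reads each gene took, with libraries grouped by stage and gender. Apoe fills 93.7 to 95.5% of the bar in ES lines, Apob is the largest part in every liver, and the bars of 8-cell embryos, which rest on few reads, differ from embryo to embryo.

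Per kilobase of exon model, the order of the genes differed between the stages. The exon model merges the exons of all GENCODE transcripts of a gene (11 for Apoe, 1 for Apoa4). It can be longer than the mRNA present, which lowers the value, so the order between genes depends on it. In fetal liver the median ran from Apoa1 (1960 CPM per kb) through Apoa2 (1540), Apoh (1032), Apoe (854), Apob (538), Apoc1 (368) and Apoc2 (306) to Apoc3 (4.10), Apoa5 (0.677) and Apoa4 (0.512). In adult liver it ran from Apoa2 (5804 CPM per kb) through Apoe (4929), Apoa1 (3553), Apoc1 (2857), Apoh (1469), Apob (1431), Apoc3 (1010) and Apoa5 (568) to Apoc2 (206) and Apoa4 (115). Neighbours in the adult order were not all separate, since Apoh lay above Apob in only 13 of 24 livers. The other adult neighbours kept their order in 19 to 24 of 24 livers. In fetal liver the least separate neighbours were Apoa5 and Apoa4, with Apoa5 higher in 17 of 24 livers, and the others kept their order in 21 to 24 of 24.

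Adult liver carried more of 9 of the 10 mRNAs than fetal liver, and Apoc2 went the other way. The range of the fold difference was wide, from 1.61-fold for Apoh to 761-fold for Apoa5. The test was edgeR's quasi-likelihood F test on 24 against 24 livers, and a gene was called when its Benjamini-Hochberg adjusted p over 13026 genes was under 0.1 and its log2 difference over 0.5. By that rule 31.7% of all genes were higher and 35.4% lower in adult liver, and 9 of the 10 members were called higher. Their median log2 difference was 2.36, beside -0.05 for all genes. In whole organs, fewer cells of a type and less RNA per cell cannot be told apart.

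The blood-making tissue of the fetal liver moved with this comparison. All 6 erythroid markers tested and all 4 neutrophil markers were called lower in adult liver, and 7 of 9 hepatocyte markers were called higher. The summed hepatocyte markers were at 42600 to 57933 CPM in fetal and 67498 to 102615 CPM in adult liver, and the summed erythroid markers at 3711 to 5542 and 19.3 to 251 CPM. The 4 globin genes of that list were at no more than 0.708 CPM in any fetal liver, so the erythroid sum rested on the other markers. Why the globin counts were so low was not tested, and they are not read as the globin level of the tissue. Scaling to the hepatocyte markers moved the median of all genes to a log2 difference of -0.86, and scaling to library totals moved it to -0.61. Under both scalings 8 members kept a log2 difference above 0, and Apoh turned to -0.13 under the hepatocyte scaling, with 0.12 under library totals. Apoa1 lay under the fold threshold in both, at 0.12 and 0.38.

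Apob and Apoe encode proteins that carry the particle. Apob mRNA was at 6279, 7495 and 9058 CPM (lowest, median, highest) in fetal liver. In adult liver it was at 16081, 19933 and 24518 CPM. The ranges did not overlap, and the log2 difference was 1.51 (SE 0.042, edgeR adjusted p = 3.09e-38). Apoe was at 1477, 1825 and 2193 CPM in fetal and 8983, 10537 and 12373 CPM in adult liver. On this TMM scale every adult liver thus held over 4 times the highest fetal value. The log2 difference of Apoe was 2.67 (SE 0.041, edgeR adjusted p = 1.06e-50). By library totals without TMM, mean Apoe was 2019 CPM in fetal and 8696 CPM in adult liver.

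The mRNAs of the main high density lipoprotein proteins were already abundant before birth. Apoa1 was at 2001, 2422 and 2819 CPM in fetal and 2278, 4392 and 5662 CPM in adult liver. Its ranges overlapped, through adult females with low values, and the log2 difference was 0.94 (SE 0.066, edgeR adjusted p = 2.51e-19). Apoa2 was at 671, 827 and 908 CPM in fetal and 2327, 3117 and 4025 CPM in adult liver, a log2 difference of 2.05 (SE 0.036, adjusted p = 3.11e-48) with no overlap.

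The regulators of lipoprotein lipase split. Apoc2, the activator, was at 174, 249 and 334 CPM in fetal and 136, 168 and 209 CPM in adult liver. Its log2 difference of -0.46 (SE 0.052, edgeR adjusted p = 4.90e-12) passed the p threshold but not the fold threshold, and the ranges overlapped. Under library totals it was -1.03 and under the hepatocyte scaling -1.28, both called. Apoc3, the inhibitor, was at 2.55, 4.16 and 62.5 CPM in fetal liver, with 8.79 CPM the highest value outside female 14, and at 768, 1024 and 1400 CPM in adult liver. The log2 difference of Apoc3 was 7.44 (SE 0.25, adjusted p = 3.25e-30), and 7.94 without female 14. Apoa5 was at 0.510, 1.71 and 5.70 CPM in fetal liver, from 4 to 52 reads a library, and at 1207, 1432 and 2463 CPM in adult liver. This was the widest gap of the 10, at 9.57 on the log2 scale (SE 0.16, adjusted p = 1.04e-43).

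Apoa4 was at 0.297, 0.928 and 1762 CPM in fetal liver and at 111, 208 and 482 CPM in adult liver. Without female 14 its highest fetal value was 3.54 CPM, so that library alone made the ranges overlap. Its log2 difference was 4.24 (SE 0.78, edgeR adjusted p = 3.17e-06) with all livers and 7.64 (SE 0.13) without female 14. Apoc1 was at 199, 273 and 375 CPM in fetal and 1708, 2126 and 2530 CPM in adult liver, a log2 difference of 3.05 (SE 0.053, adjusted p = 3.19e-48). Apoh was at 1301, 1646 and 2060 CPM in fetal and 1933, 2342 and 3136 CPM in adult liver. Its difference of 0.69 (SE 0.040, adjusted p = 8.73e-23) was the smallest of the 9, and its ranges overlapped.

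The 4 ES lines held almost one apolipoprotein mRNA, Apoe. Its reads numbered 6811 and 9117 in the male lines and 7897 and 7545 in the female lines, which is 492, 663, 607 and 593 CPM. All 4 values lay below the lowest fetal liver (1477 CPM), with a log2 difference of -1.58 (SE 0.082, edgeR adjusted p = 6.83e-18, 4 lines against 24 livers). Apoe ranked between 100 and 182 among all genes by reads in these lines and made up 95.0% ± 0.843 of the 10 genes' reads (SD, n = 4).

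Apoc1, the gene beside Apoe, had 173, 234, 222 and 236 reads in the same lines (12.5 to 18.5 CPM), a log2 difference from fetal liver of -4.06 (SE 0.14, edgeR adjusted p = 3.13e-22). Apoa2 had 254, 174, 117 and 105 reads (8.25 to 18.3 CPM), at -6.07 (SE 0.11, adjusted p = 3.03e-30). Apob had 15, 19, 27 and 31 reads and Apoc2 11, 4, 5 and 7, both far under their fetal levels.

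Apoa1 had 2, 0, 0 and 1 reads in the ES lines. Over the 4 lines these 3 reads put the fetal median 43047-fold higher, with an exact 95% Poisson interval of 14730 to 208738 that covers counting error only. Apoa4, Apoa5, Apoc3 and Apoh had 0 reads in all 4 lines. Against the highest value that 3 reads would give in any line (0.236 CPM), the fetal median without female 14 was at least 3.89-fold higher for Apoa4, 7.85-fold for Apoa5, 17.5-fold for Apoc3 and 7129-fold for Apoh. Of the 10 genes, 9 were called lower in ES lines than in fetal liver, where 41.2% of 14858 genes were called lower and 35.3% higher. The exception, Apoa4, had an adjusted p of 0.177 with all fetal livers and was called without female 14 (adjusted p = 4.74e-08).

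Male and female ES lines could be compared on 4 of the genes, with 2 lines a group. None was called by edgeR (2 had an unadjusted p under 0.05, and 9.5% of 12678 genes were called), while DESeq2 called Apoa2. The Apoa2 lines did not overlap, with 18.3 and 12.7 CPM in males against 9.0 and 8.2 CPM in females, at a log2 difference of 0.85 (SE 0.23, adjusted p = 0.104 by edgeR and 0.0879 by DESeq2). Apob (-0.86, adjusted p = 0.202), Apoc1 (-0.27, 0.437) and Apoe (-0.05, 0.858) missed the p threshold. Apob and Apoc1 also did not overlap, but with 2 lines against 2 this held for 57.1% of 12538 genes.

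In 8-cell embryos, reads were few and uneven. Apoa1 had 19 to 394 reads in the 6 male embryos (median 176.5) and 0 to 293 in the 6 female embryos (median 40.5). Apoe had 0 to 115 reads in male and 13 to 214 in female embryos. The embryo with the most Apoa1 reads (male 5) was not the one with the most Apoe (female 8), and the range of either gene reached 0.

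Apoc1 was the one member with reads in all 12 embryos, at 10 to 43 (1.54 to 8.54 CPM). Apoc2 had 1 to 120 reads in male and 0 to 77 in female embryos. Apoa4 had 22 reads in male 5 and 0 in the other 11 embryos. Apoh had 7 reads in female 10, 1 in males 1 and 4, and Apob had 1 in females 10 and 11. Apoa2, Apoa5 and Apoc3 had 0 reads in all 12, below a floor of 0.339 to 0.596 CPM that 3 reads would give. Single-embryo amplification precedes these counts, so their spread is not that of sequencing alone.

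No member differed between male and female embryos by edgeR (4 tested, 0 with an unadjusted p under 0.05), where 0.264% of 9087 genes were called, and none did by DESeq2. The log2 differences (male over female) were 0.84 (SE 0.99) for Apoa1, -0.75 (SE 0.88) for Apoe, 0.25 (SE 1.2) for Apoc2 and 0.19 (SE 0.94) for Apoc1. Standard errors near 1 on the log2 scale leave wide intervals around these values. No member had separate male and female ranges, which 0.479% of 10862 genes had.

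In adult liver, 7 of the 10 genes were lower and 1 was higher in males by adjusted p, and Apoa4 and Apoc3 were called lower with the fold threshold too. Among all 10372 genes tested, 17.7% were lower and 15.1% higher in males by adjusted p alone, and 6.48% were called lower and 3.01% called higher with both thresholds. The median over the 10 members was -0.25 on the log2 scale, beside -0.00 for all genes. Ranges of the 12 males and 12 females did not overlap for Apoa2, Apoa4, Apoc3 and Apoh, which held for 2.28% of 12217 genes.

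Apoa4 had the widest gap. It was at 111, 135 and 191 CPM (lowest, median, highest) in males and at 226, 298 and 482 CPM in females, so the highest male lay under the lowest female. The fold was 2.27, a log2 difference of -1.18 (SE 0.12, edgeR adjusted p = 2.56e-08). In a single fit of all 48 livers, fetal female 14 included, the value was -1.17 and was no longer called (adjusted p = 0.310).

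Apoc3, the neighbour of Apoa4, was at 768, 860 and 1009 CPM in males and 1039, 1209 and 1400 CPM in females. The groups were separate, and the log2 difference of -0.51 (SE 0.047, edgeR adjusted p = 4.18e-10) lay just past the fold threshold. With DESeq2 size factors (-0.50), DESeq2 (-0.49), no expression filter (-0.48) or an erythroid covariate (-0.46) it fell just short, with its p still under 0.1, and in the single fit of 48 livers (-0.49) its adjusted p was 0.156. Apoa5 was at 1207, 1373 and 1852 CPM in males and 1301, 1623 and 2463 CPM in females, overlapping, at -0.24 (SE 0.082, adjusted p = 0.0322).

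Apoa1 was the one member higher in adult males, at 3993, 4790 and 5413 CPM against 2278, 4074 and 5662 CPM in females. The female range enclosed the male range at both ends, and the log2 difference was 0.29 (SE 0.11, edgeR adjusted p = 0.0672). The 4 lowest females (2278, 2567, 2633 and 2893 CPM) lay apart from the other 8, which ran from 3946 to 5662 CPM. With the 17 adult livers of over 2000000 reads the adjusted p was 0.174. Apoa2, its partner on high density lipoprotein, went the other way, at 2327, 2577 and 2857 CPM in males and 3377, 3645 and 4025 CPM in females. Its ranges were separate, and its log2 difference of -0.50 (SE 0.048, adjusted p = 7.88e-10) fell just short of the fold threshold.

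Apoh, Apoc1 and Apoe were lower in males by adjusted p, short of the fold threshold. Apoh was at 1933, 2177 and 2314 CPM in males and 2369, 2682 and 3136 CPM in females, separate, at -0.34 (SE 0.044, edgeR adjusted p = 3.90e-07). Apoc1 was at 1708, 1973 and 2142 CPM in males and 2074, 2385 and 2530 CPM in females, at -0.27 (SE 0.055, adjusted p = 0.000376). Apoe was at 8983, 10214 and 11079 CPM in males and 9638, 11275 and 12373 CPM in females, at -0.17 (SE 0.053, adjusted p = 0.0166). Apob, at 18398, 20527 and 24518 CPM in males and 16081, 19072 and 21758 CPM in females, missed the threshold at 0.12 (SE 0.065, adjusted p = 0.189), and so did Apoc2, at 136, 177 and 197 against 136, 157 and 209 CPM (0.01, SE 0.075, adjusted p = 0.956).

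Other markers moved with gender in adult liver. The summed hepatocyte markers were at 67498 to 76394 CPM in males and 83180 to 102615 CPM in females, and Ahsg among them was called lower in males. Scaled to those markers, the median of all genes shifted by 0.32 toward males. Apoa4 was then at -0.86 and still called, and Apoa1, at 0.62, was now called higher in males. Apoc3 at -0.19 was no longer called, Apoa2 was at -0.18, and Apoh was at -0.02. Apob (0.43) and Apoc2 (0.33) passed the p threshold toward males, short of the fold threshold, and Apoa5, Apoc1 and Apoe turned to 0.09, 0.04 and 0.14. Of 7 macrophage markers 4 were called lower in males, and the erythroid sum, which rested on Alas2, was at 194 to 251 CPM in males and 19.3 to 57.9 CPM in females. With an erythroid covariate Apoa4 was at -1.15 and Apoa1 at 0.48. Beyond these fits, the part of the marker differences in the gender gaps was not tested.

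**Figure D3:**
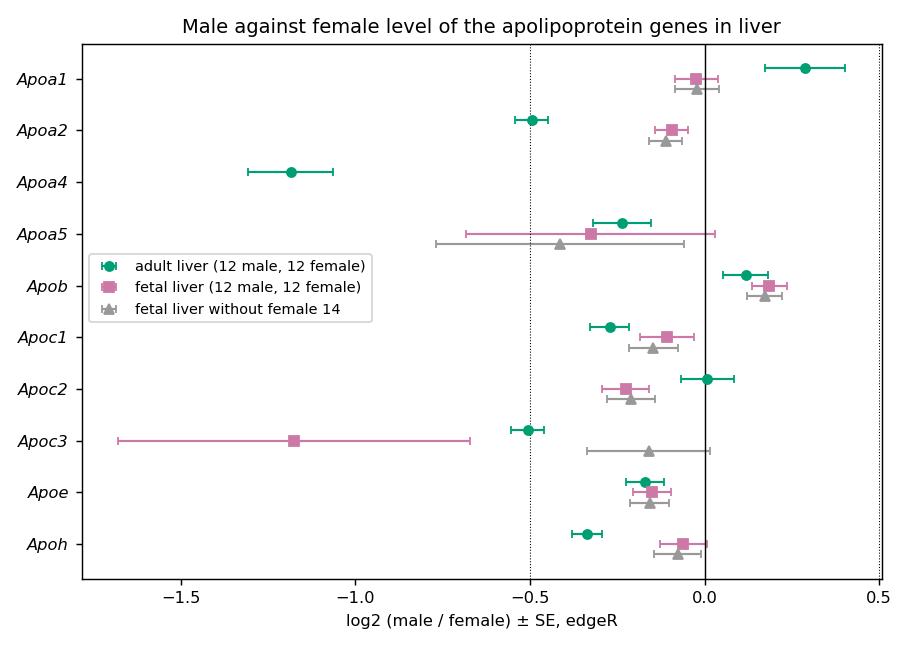
Points give the log2 ratio of male to female level from edgeR with its standard error, for adult liver, fetal liver and fetal liver without female 14. Dotted lines stand at the fold threshold of 0.5 either way. Apoa4 (-1.18) and Apoc3 (-0.51) pass it in adult liver, and the fetal Apoc3 point moves from -1.18 to -0.16 when female 14 is left out. Apoa4 did not pass the count filter in fetal liver and has no fetal point.

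In fetal liver the genders were close for most members. By adjusted p alone 3 of the 9 genes tested were lower and 1 was higher in males, where 19.5% of 12930 genes were lower and 17.7% higher. With both thresholds 0.828% of genes were called lower and 3.81% higher, and Apoc3 was the one member called. The Apoc3 call rested on female 14. Males were at 2.55, 3.95 and 6.51 CPM and females at 3.26, 4.39 and 62.5 CPM, or at most 8.79 CPM without female 14. The log2 difference was -1.18 (SE 0.50, edgeR adjusted p = 0.0823) with that library and -0.16 (SE 0.18, adjusted p = 0.522) without it.

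Apob was higher in fetal males, at 6500, 7993 and 9058 CPM against 6279, 7059 and 7951 CPM in females, with overlap (log2 0.19, SE 0.051, edgeR adjusted p = 0.00658). Apoc2 was lower, at 174, 225 and 289 CPM against 228, 267 and 334 CPM (-0.23, SE 0.068, adjusted p = 0.0127). Apoe was also lower, at 1477, 1697 and 1934 CPM against 1594, 1980 and 2193 CPM (-0.15, SE 0.055, adjusted p = 0.0372). All 3 differences were under the fold threshold. Apoa1 (-0.02), Apoa2 (-0.09), Apoa5 (-0.33), Apoc1 (-0.11) and Apoh (-0.06) missed the p threshold, with adjusted p from 0.140 to 0.805. No member had separate ranges, which 1.75% of 13548 genes had. Male and female fetal livers also differed in the share of reads outside genes, with no overlap. With that share as a covariate, 9 genes of all were called in place of 600, Apob was at -0.03, Apoc2 at 0.03 and Apoe at 0.05, so that gender and this share cannot be told apart for these members.

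Apoa4 in fetal liver was a matter of one library. Males were at 0.297, 0.808 and 2.17 CPM and females at 0.498, 1.06 and 1762 CPM. Fetal female 14 held 13953 Apoa4 reads, against 2 to 27 in the other 23 fetal livers, and 495 Apoc3 reads against 15 to 67. Its intestine markers and the bile duct markers Krt19 and Epcam stood apart too. It had 1415 reads of Vil1 (a brush border protein) and 3727 of Fabp2 (the intestinal fatty acid binding protein), against at most 42 of each elsewhere, and 87 of Cdx1 (an intestinal transcription factor) against at most 1. Summed, the 4 intestine markers reached 664 CPM there and 3.91 to 10.2 CPM in the other fetal livers. Krt19 (a keratin of duct cells) and Epcam (an epithelial adhesion protein) had 701 and 1339 reads there, against at most 88 and 91 elsewhere. Sox9, the other bile duct marker, had 17 reads there, within the 2 to 64 reads of the other fetal livers. The 3 bile duct markers summed to 260 CPM against at most 23.4. The part of either marker set in the Apoa4 reads of this library was not tested.

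The other 8 members in female 14 lay within the range of the other fetal livers, except Apob, at 6279 CPM just under their lowest (6431 CPM). Apoa1, which enterocytes also make, was at 2427 CPM there, beside a median of 2417 CPM elsewhere. The pancreas enzymes Ctrb1, Cela2a and Cpa1 were at 51.3, 18.3 and 12.6 CPM there, above the medians of the other fetal livers (0.157, 0.164 and 0.567 CPM), though pancreas markers peaked in another fetal liver, at a sum of 675 CPM.

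**Figure D4:**
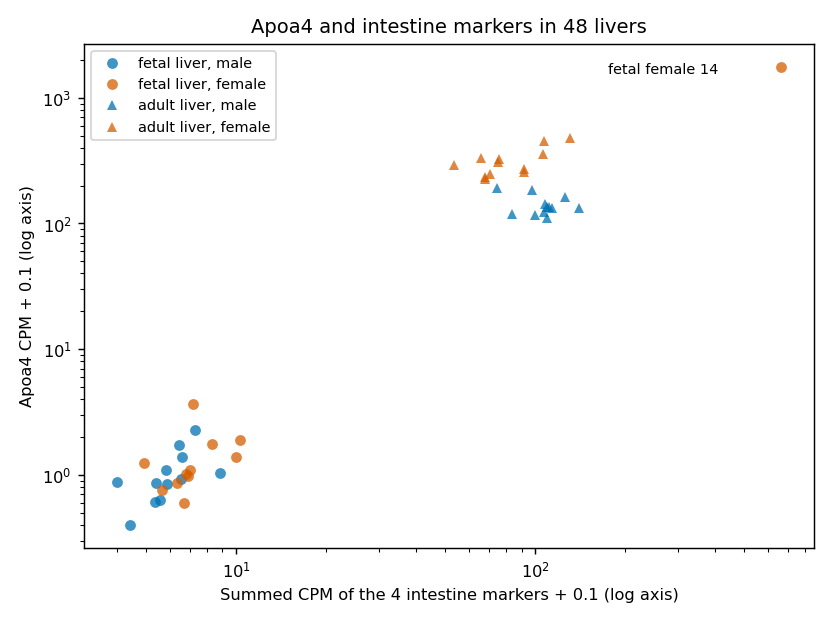
Each point is 1 of 48 livers, with Apoa4 CPM against the summed CPM of the 4 intestine markers, both plus 0.1 on log axes (circles fetal, triangles adult, blue male, orange female). Fetal female 14 sits alone at 664 CPM of markers and 1762 CPM of Apoa4. The other fetal livers lie at or under 10.2 and 3.54 CPM, and in the adults females lie above males in Apoa4 (226 to 482 against 111 to 191 CPM) at marker sums of 53.4 to 140 CPM. Of the 4 markers, only 1 passed the count filter within adult liver. Between adult and fetal liver 2 were tested, with 1 called higher and 1 lower in adults.

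Whether the gender gap differed between adult and fetal liver was tested as the difference of both gaps in one fit of 48 livers. By adjusted p alone 5 of the 10 members differed, where 33.7% of 13026 genes did, and with the fold threshold 1 of 10 did, where 13.7% of genes did. Apoa2 had a wider gap toward females in adults (-0.36, SE 0.068, edgeR adjusted p = 8.46e-05), as did Apoh (-0.23, SE 0.080, adjusted p = 0.0277). Apoa1 (0.36, SE 0.13, adjusted p = 0.0346) and Apoc2 (0.28, SE 0.10, adjusted p = 0.0382) moved toward males, and with the share of reads outside genes as a covariate these were at 0.13 (adjusted p = 0.824) and 0.01. Apoa2 was then at -0.56 and Apoh at -0.42. The one call, Apoa4 at 6.06 (SE 1.6, adjusted p = 0.00407), turned to -0.75 (SE 0.39, adjusted p = 0.149) without fetal female 14. The other 5 missed the p threshold.

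Genes that act on the same particles were followed as a list of 51, grouped by role. Between adult and fetal liver 38 of the 49 tested were called higher and 6 lower in adults, where 31.7% and 35.4% of all genes were, with a median of 1.62. All 11 transcription factors tested were called higher, led by Nr0b2 (6.51), a co-repressor of bile acid synthesis, and Mlxipl (3.40), the carbohydrate-responsive factor ChREBP. The sterol exporter subunits Abcg5 (6.69) and Abcg8 (5.76) rose, as did Pon1 (4.72), an enzyme carried on high density lipoprotein, and Lipg (5.30), endothelial lipase. Of 9 assembly genes 8 were higher, led by Tm6sf2 (4.03) and Sar1b (2.06), both of lipoprotein export. Receptors split 3 and 3, with Sdc1 (3.02), a remnant-binding proteoglycan, higher and Lrp8 (-5.32), a receptor for Apoe, lower. The acute-phase apolipoproteins Saa1 and Saa2 went from 0.0926 and 0.0804 to 39.9 and 17.9 CPM.

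Between male and female adult livers 3 of 48 were called higher and 7 lower in males, where 3.01% and 6.48% of all genes were, with a median of -0.00. Vldlr, a receptor for Apoe-bearing particles, had the widest gap at -2.91 (2.47 CPM in males, 19.2 in females, edgeR adjusted p = 1.10e-10). Tm6sf2 (-1.15), Pltp (-0.72), the phospholipid transfer protein, Pon1 (-0.69) and Sdc1 (-0.68) were lower in males. Saa1 (1.36), Saa4 (0.69) and Sort1 (0.66), a sorting receptor for Apob, were higher. None of the 11 transcription factors or 4 efflux genes tested was called.

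In fetal liver 2 of 45 were called higher in males, Lrp1 (1.00) and A1cf (0.61), a partner of the enzyme that edits Apob mRNA, and Tm6sf2 was called lower (-1.30), where 3.81% and 0.828% of all genes were called. Without fetal female 14, Tm6sf2 was at -0.24 and no longer called. With the share of reads outside genes as a covariate, A1cf was at -0.05 and Lrp1 at 0.34, neither called. For the difference of the gaps, 4 of 49 were called toward males and 5 toward females, where 13.7% of all genes were called either way, among them Saa4 (0.66), Creb3l3 (0.64) and Mttp (0.60), which loads lipid on Apob, against Vldlr (-2.81), Pon1 (-0.73), Lrp1 (-0.70), Pltp (-0.66) and A1cf (-0.55). With that covariate A1cf (0.06), Lrp1 (-0.11), Pon1 (-0.43), Pltp (-0.57), Creb3l3 (0.42) and Mttp (0.46) were no longer called, nor was Mttp without fetal female 14 (0.35).

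Against fetal liver, ES lines were lower in 41 and higher in 5 of 49 genes of the list, where 41.2% and 35.3% of all genes were. Ppara went from 198 to 0.129 CPM, Nr1h4 from 40.1 to 0.0363 and Vldlr from 16.3 to 1.69. Abcg8 (2.82 CPM in fetal liver) and A1cf (71.4) were at 0 in all 4 lines, and Apoc4 (118), Apof (288), Cideb (30.6), Pon1 (57.2) and Abcg5 (1.34) were at 0.0553 CPM or less. Between male and female ES lines 4 of 30 were called each way, where 9.5% of all genes were called, among them Apom (-4.42), Abca1 (-2.61), Lpl (-1.48) and Lrp1 (-0.77) lower and Clu (2.09) and Sort1 (1.41) higher in males. These calls rest on 2 lines of each gender, and without female line 3 or 4 edgeR called 0 genes of the whole table, with 1290 and 1163 at an unadjusted p under 0.05. None of 19 was called in embryos.

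Across the livers of one stage, members were compared after the gender means were taken out, as Pearson r of log2 levels. These are descriptions over livers that share library depth and RNA quality. In 24 adult livers the closest pair was Apoe and Apoc1, neighbours on chromosome 7 (r = 0.82), then Apoc3 and Apoh (0.75), Apoa5 and Apoh (0.74) and, within chromosome 9, Apoc3 and Apoa5 (0.65). The median r was 0.21 over the 6 pairs of chromosome 9 and -0.05 over the 3 pairs of chromosome 7, beside 0.18 over the 36 other pairs. In 23 fetal livers, without female 14, Apoa1 went closely with Apoh (0.90) and Apoe (0.88), and the medians were 0.42, 0.54 and 0.38. The share of reads outside genes went with several members in adult liver, with r = 0.75 for Apob, -0.85 for Apoh, -0.71 for Apoa5 and -0.64 for Apoc3.

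**Figure D5:**
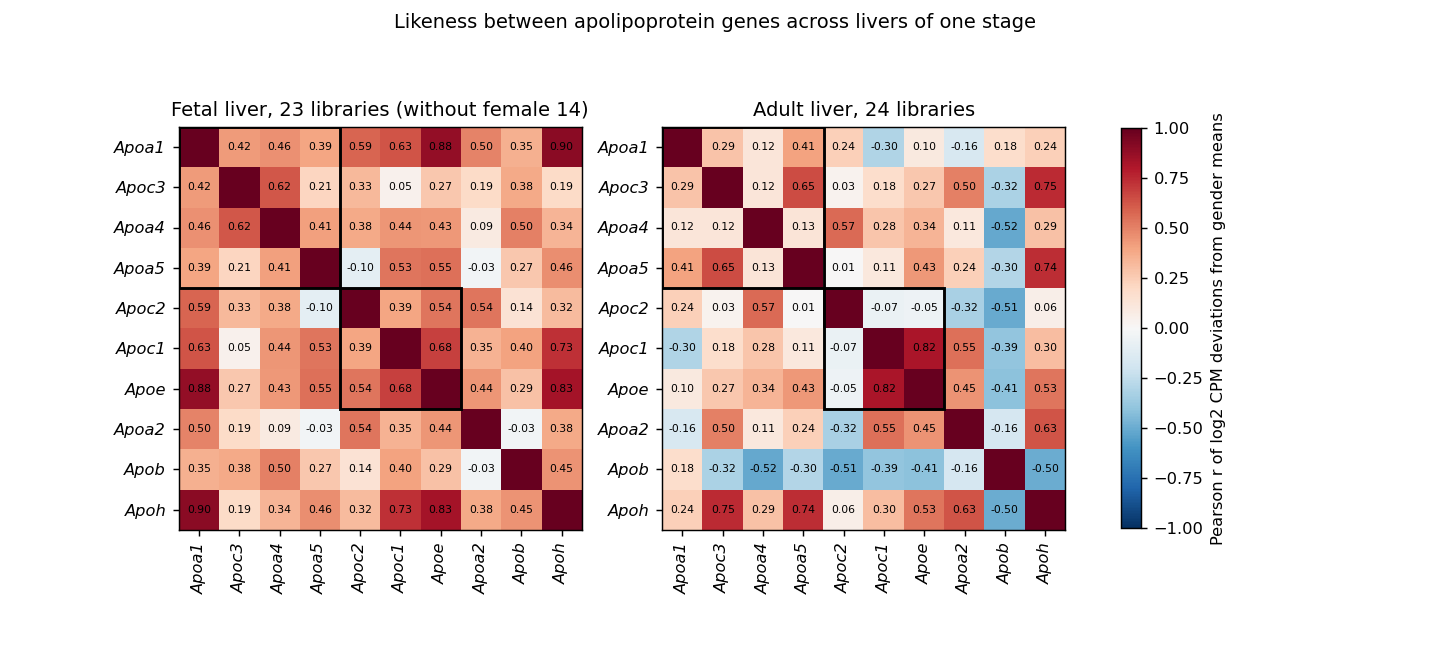
Colour and number give Pearson r between 2 members over livers of one stage, after removing gender means from log2 CPM, with the chromosome 9 and chromosome 7 clusters outlined. In adult liver Apoe with Apoc1 (0.82) and Apoc3 with Apoh (0.75) are the strongest pairs, and Apob is negative with most members, down to -0.52 with Apoa4. In fetal liver (23 libraries) Apoa1 with Apoh (0.90) leads.

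For the 2 members called by gender in adult liver, the genes outside the 10 with the most similar levels over 24 livers were sought among 12458 genes. For Apoa4 they were Hmox2 (0.81), Cdk5 (0.75) and Scoc (0.73). For Apoc3, Uros (0.81) and Azgp1 (0.81) were among the top 3. In the 17 livers of over 2000000 reads, Hmox2 (0.84) and Scoc (0.83) were again among the top 3 for Apoa4, and Azgp1 (0.80) for Apoc3.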

How the data were processed

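The authors mapped reads to mm10 with TopHat2 2.0.4, Bowtie2 2.1.0 and SAMtools 0.1.18, removed duplicates with Picard and counted reads per gene with HTSeq, whose version and strand setting are not given in the sources used here. They deposited raw counts, 1 table a library. The 5 rows that name no gene were left out of totals and tests. Duplicate removal can cap the counts of short, abundant mRNAs. Groups came from the stage and gender labels.

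Here, counts were tested with edgeR 4.0.16 (TMM, filterByExpr, robust quasi-likelihood F test, two-sided) in R 4.3.3, with Benjamini-Hochberg adjustment over all genes tested. Called means adjusted p under 0.1 and absolute log2 over 0.5. DESeq2 1.42.0 was an alternative. CPM used TMM factors over all 64 libraries, and likeness used log2(CPM + 0.5) of genes averaging 1 CPM or more. The fits were tested on simulated counts in which all genes shared the same dispersion. Those counts held no outlier library and no gender difference in reads outside genes, so they do not test the results against these. Intervals and floors cover counting error only. The members, the 51-gene list and the markers were chosen with earlier results of these data known. Of each role, the 2 called genes with the largest log2 difference were named, as were the 3 genes most like each member called by gender in adult liver. Some genes that this rule names are not reported here. Alternatives changed scaling, filter, tool, thresholds, covariates and samples.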

Additional observations from a re-analysis of the deposited data

Results flagged for a closer look

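For 3 of 12 sets of values, each 1 member in the 6 embryos of 1 gender, 1 embryo lay far from the others. The usual chance rate of about 1 in 20 does not hold for such sparse counts, since a single embryo with reads stands apart wherever the other 5 are at 0. Apoa4 was at 3.38 CPM (22 reads) in male embryo 5 and 0 in the other 5 males. Apoc2 was at 16.1 CPM (120 reads) in male embryo 6. Apoh was at 1.18 CPM (7 reads) in female embryo 10 and 0 in the other 5 females.

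The male to female gap differed between adult and fetal liver for 5 of 10 members in edgeR's test, by adjusted p alone. That held for 33.7% of 13026 genes. With the fold threshold too, 1 of 10 members (Apoa4) was called, where 13.7% of genes were. On the log2 scale the adult gap minus the fetal gap was 0.36 for Apoa1, -0.36 for Apoa2, 0.28 for Apoc2 and -0.23 for Apoh. For Apoa4 it was 6.06, and -0.75 (adjusted p = 0.149) without fetal female 14. With the share of reads outside genes as a covariate it was 0.13 for Apoa1, -0.56 for Apoa2, 0.01 for Apoc2 and -0.42 for Apoh.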

How the results depend on the processing

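The fits without fetal female 14 and those without shallow adult livers were choices made after the data were seen. So was the fit that kept only fetal livers with few pancreas reads (at most 10 CPM). Replicate numbers did not pair animals. Each adult liver was set beside the fetal liver of the same gender and number. Over these 24 pairs and 11956 genes, r ran from -0.11 to 0.04, and 1 adult liver matched its own number best. With the replicate block, the difference of the gaps called 0 members in place of 1 (Apoa4, 0.34) and 1661 genes in place of 1787, and adult against fetal liver called 9 members either way (8731 and 8742 genes).

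For gender in adult liver, 2 members were called. The count was 1 with DESeq2 size factors, DESeq2, no expression filter, the erythroid covariate or the stricter rule (adjusted p under 0.05, log2 over 1), 0 in the single fit of 48 livers and 8 by adjusted p alone. Genes called went from 984 to 1518 (no filter), 2199 (hepatocyte scaling), 3400 (p alone) and 270 (stricter rule). Apoa5 (0.0911), Apoc1 (0.0400) and Apoe (0.14) turned under hepatocyte scaling.

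For gender in fetal liver, 1 member was called, 0 with DESeq2, the outside-genes covariate, hepatocyte scaling, few pancreas reads, the stricter rule or without fetal female 14, 2 in the single fit and 4 by p alone. Genes went from 600 to 1057 (no filter), 9 (outside-genes covariate), 4807 (p alone) and 52 (stricter rule). That covariate turned Apoa1 (0.19), Apoa2 (0.10), Apob (-0.0269), Apoc1 (0.0650), Apoc2 (0.0307), Apoe (0.0543), Apoh (0.12) and A1cf (-0.0502), and few pancreas reads turned Apoa1 (0.000935).

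For the difference of the gaps, 1 member was called, 2 with DESeq2 or the outside-genes covariate, 0 without fetal female 14 and 5 by p alone. Genes went from 1787 to 744 (that covariate), 4384 (p alone) and 495 (stricter rule). The covariate turned Apoa4 (-13.62), Apoa5 (-0.0367), Apob (0.16), Apoc3 (-0.37), Apoe (-0.19) and A1cf (0.0566). Without fetal female 14 Apoa4 (-0.75) and Apoc3 (-0.29) turned, and with adult livers over 2000000 reads Apoe did (-0.0587).

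Adult against fetal liver called 5654 genes in place of 8742 by the stricter rule, and Apoh turned under hepatocyte scaling (-0.13). Between ES lines, 0 members were called, 1 with DESeq2 or no filter, and 0 to 3 with 1 line left out. Genes called went from 1205 to between 0 and 3070 with 1 line left out, and to 423 by the stricter rule. Without female line 3 or 4 edgeR called 0 genes, with 1290 and 1163 at an unadjusted p under 0.05, where the lone line was assumed to vary like the others. Apoe ran from -0.28 to 0.14 with 1 line left out, the latter without male line 1. DESeq2 called 80 genes between embryos in place of 24. Without hepatocyte and erythroid markers in the total, the members' share of reads was 1.74% in fetal and 3.95% in adult liver. The causes of these changes were not tested. Adult livers, at 3 reads per 0.801 to 2.28 CPM, limit low genes most.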

Other observations

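The 4 adult females with the lowest Apoa1 (females 24, 14, 13 and 21, a grouping made after the values were seen, with no test) had 2278 to 2893 CPM of it. Their Apoa2 (3645 to 3868 CPM), Apoc3 (1114 to 1236 CPM), Apoe (10973 to 11641 CPM), Apoa5 (1412 to 1645 CPM), Apoh (2496 to 2780 CPM) and Apoa4 (235 to 456 CPM) lay within the range of the other 8 females. Apoc1 in females 24 and 13 (2530 and 2504 CPM) lay above the highest of the other 8 (2494.5 CPM). In female 14, Apob (16081 CPM) lay under their lowest (16702 CPM), and Apoc2 (209.4 CPM) just over their highest (208.7 CPM). Reads on genes in these 4 ran from 1567583 to 2962075, and the share outside genes from 27.5 to 34.8%, beside 25.7 to 36.6% over all 12 adult females.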
